A study of Mus musculus with 104 samples.

Results

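The report concerns 7 genes of B cells and antibody chains, measured in mouse brain regions at several ages: Igh-VJ558 and Igh-6 (immunoglobulin heavy chain), Igj (the J chain), Cd79a and Cd79b (the signalling pair of the B cell receptor), Ms4a1 (the surface protein CD20) and Pou2af1 (a transcriptional co-activator of B cells). They were taken as every probe on the arrays whose gene name, or the current symbol of whose RefSeq identifier, was 1 of these names, which gave 19 probes for 7 of 28786 gene names on 1 array design and for 7 of 30993 on the other. Igh-VJ558 had 9 probes, Igh-6 had 3, Igj and Ms4a1 had 2 each, and the other genes had 1. The genes were chosen by their log2 signals in the aged and young hypothalamus of BALB mice, so the values in that cohort are a description and carry no p-value here.

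An antibody is built from heavy and light chains, and the heavy chain joins a variable part, which binds antigen, to a constant part, which sets the class: mu for IgM, delta for IgD and alpha for IgA. A B cell carries antibody on its membrane together with CD79A and CD79B and displays CD20, while a plasma cell drops most of these surface proteins and secretes antibody in bulk. The J chain, a small protein made by antibody-secreting cells, links the units of secreted IgM and IgA at their tailpieces. Healthy brain tissue holds few B lineage cells, and they are found mainly in the meninges, the choroid plexus and the blood vessels.

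RNA of 104 samples was hybridised to 1-colour Agilent arrays, and scanner files of 96 of them were used. All mice were males except in the frontal cortex. The BALB hypothalamus had 7 young (2-3 mo), 5 middle-aged (12-13 mo) and 6 aged (20-23 mo) mice. The CBA hypothalamus had 7 young, 5 middle-aged and 8 aged (21-23 mo), and the C57BL6/J hypothalamus had 5 young and 5 aged (22-24 mo). The C57BL/6 cerebellum had 4 young, 2 middle-aged and 6 aged (21-23 mo). Samples labelled BALB cerebellum numbered 5 young, 6 middle-aged and 4 aged (21-23 mo), and those labelled BALB striatum numbered 3, 5 and 5. The frontal cortex of female BALB mice had 8 young and 8 aged (15-16 mo), of which 4 and 4 had scanner files. Young and middle-aged mice had the same age ranges in every cohort. The design calls the arrays of a group biological replicates, and n is the number of arrays.

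Values are log2 processed signals, quantile normalised within a cohort, and arrays are numbered within their age group. A probe entered the test only if the number of arrays on which the scanner software rated it well above background reached the size of the smaller group. It was called differentially expressed when limma's log posterior odds (B) was above 0. For the genes of this report in the BALB hypothalamus, B and the call only describe the arrays, since those values chose the genes. The share of probes well above background ran from 56.1% to 91.4% over the 96 arrays. The hypothalamic genes Pmch and Hcrt were well above background on every array of the 3 hypothalamus cohorts. Gabra6, a receptor subunit of cerebellar granule cells, lay at 12.2 to 14.2 in the C57BL/6 cerebellum. Aged array 1 of the C57BL6/J hypothalamus also held Gabra6 inside that range. The BALB cohorts labelled cerebellum and striatum went against their labels on many arrays, among them every young array of both. Every middle-aged array labelled cerebellum also had Pmch above every aged one. In the labelled cerebellum, Gabra6 was at 1.80 to 7.75 in the young, 2.43 to 11.24 in the middle-aged and 13.99 to 15.82 in the aged, while Pmch was at 11.90 to 14.26, 11.78 to 14.71 and 5.57 to 7.83. In the labelled striatum Gabra6 was at 15.0 to 15.8 in the young, and 1 aged array (array 3) was at 5.14. Age and tissue cannot be told apart in those cohorts.

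The 9 Igh-VJ558 probes do not report 1 RNA, and their sequences are shown because the results turn on which part of the antibody locus each one matches. All lie on the minus strand of chromosome 12, and the positions are those of the scanner files (genome build mm7, NCBI35). The first 3 lines are named by the files from a single complete cDNA clone and lie at the end of the locus, next to a probe (A_51_P270661, chr12:110786288-110786346) that the files describe as an I alpha polypeptide. They are called the alpha constant probes here, and the line that ends the locus is called the alpha-end probe. The line A_52_P571419 is a mu probe that carries no member name, and A_51_P485421 is the Igh-6 probe of the mu constant region. Capitals mark the 11 bases GGTAAACCCAC that the alpha and mu ends share, in the tailpieces to which the J chain binds.
A_51_P509679, chr12:110781031-110781090: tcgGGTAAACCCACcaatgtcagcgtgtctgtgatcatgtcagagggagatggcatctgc
A_51_P187645, chr12:110781169-110781228: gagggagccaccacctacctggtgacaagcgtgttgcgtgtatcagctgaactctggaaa
A_51_P180159, chr12:110781289-110781348: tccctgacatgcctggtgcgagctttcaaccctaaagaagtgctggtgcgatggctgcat
A_52_P571419, chr12:110942239-110942298: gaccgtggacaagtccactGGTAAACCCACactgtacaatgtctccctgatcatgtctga
A_51_P485421, chr12:110942769-110942828: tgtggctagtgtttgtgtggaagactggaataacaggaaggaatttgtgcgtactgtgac

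The remaining Igh-VJ558 probes lie among the variable segments of the same chromosome. A probe named from the same clone as the alpha constant probes, A_51_P391836, stands first below, so that 1 cDNA gave probes at both ends of a rearranged chain. Capitals in the other lines mark a run of 20 bases, GAAGTTCAAGGGCAAGGCCA, which those probes share, and A_52_P151887 and A_52_P686392 share 35 bases in a row. Such probes can take up RNA of many related variable segments.
A_51_P391836, chr12:111118840-111118898: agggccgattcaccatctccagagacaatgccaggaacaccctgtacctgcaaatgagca
A_51_P328275, chr12:112230161-112230220: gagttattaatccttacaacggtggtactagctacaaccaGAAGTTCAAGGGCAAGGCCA
A_52_P686392, chr12:113687518-113687577: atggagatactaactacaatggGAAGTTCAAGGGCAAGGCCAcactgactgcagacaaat
A_52_P151887, chr12:113687521-113687580: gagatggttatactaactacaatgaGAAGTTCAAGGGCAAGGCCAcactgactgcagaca

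The other probes were placed by the files as follows. Igh-6 had a probe between the mu and delta constant regions (A_52_P358360, chr12:110940000-110940059) and one among the variable segments (A_52_P311042, chr12:111809640-111809699). Igj was measured on chromosome 5 (chr5:88461353-88461412 and chr5:88461523-88461582), Cd79a on chromosome 7 (chr7:21688822-21689079), Cd79b on chromosome 11 (chr11:106420507-106420566), Ms4a1 on chromosome 19 (chr19:10931002-10931061 and chr19:10931462-10931521) and Pou2af1 on chromosome 9 (chr9:51218585-51218644). Whether a probe lies in an exon or an untranslated region was not settled here.

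The probes differed in how often they rose above background. The Igh-6 probes A_52_P358360 and A_51_P485421 were well above background on every array of every cohort, and A_52_P311042 on 4 of 96. The alpha-end probe was well above background on 17 of 18 arrays in the BALB hypothalamus, 17 of 20 in the CBA hypothalamus, 9 of 10 in the C57BL6/J hypothalamus, 11 of 12 in the C57BL/6 cerebellum and 4 of 8 in the frontal cortex. It was so on every array of the labelled BALB cerebellum and striatum. Igj (A_51_P150710) passed on 16 of 18 arrays of the BALB hypothalamus, on none of 20 in the CBA hypothalamus and on 3 of 8 in the frontal cortex, and on all arrays of the other cohorts. Ms4a1 was the dimmest gene by this measure, with neither probe above background on any array of the CBA hypothalamus or the frontal cortex.

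Levels in different cohorts can be set side by side only as a rank within each array. The CBA hypothalamus and the frontal cortex were on the array design with 43674 probes and the other cohorts on that with 41174. Ranks on the 2 designs are therefore taken over different sets of probes. The alpha-end probe stood at a median percentile of 55.9 among all probes in the BALB hypothalamus, 54.3 in the CBA hypothalamus, 53.3 in the labelled BALB cerebellum, 50.1 in the C57BL/6 cerebellum, 44.2 in the C57BL6/J hypothalamus, 40.1 in the labelled striatum and 29.5 in the frontal cortex. The arrays spread so widely, from 29.4 to 83.1 in the BALB hypothalamus and from 12.8 to 53.0 in the frontal cortex, that the ranges of all neighbours in this order overlapped. The Igh-6 probe A_52_P358360 was steadier, with medians from 69.0 in the labelled striatum to 82.1 in the frontal cortex.

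In the BALB hypothalamus the 3 alpha constant probes of Igh-VJ558 were higher in aged than in young mice. The I alpha probe and the only variable-segment probe tested were not, and the other variable-segment probes were too dim to test. The alpha-end probe had a lowest, median and highest value of 3.82, 7.13 and 7.36 in the 7 young mice and 7.97, 9.69 and 11.35 in the 6 aged mice. Every aged array lay above every young array, and the middle-aged arrays, at 8.04, 7.53, 8.64, 7.93 and 6.51, overlapped with both. The log2 difference between aged and young was 3.34 (SE 0.61, B 2.29). Middle-aged mice were 1.33 above the young on the log2 scale (SE 0.65, B -3.97).

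The other alpha constant probes were high on the same aged arrays. A_51_P180159 ran from 2.56 through a median of 5.28 to 6.15 in the young and from 6.44 through 7.80 to 9.23 in the aged. Its groups did not overlap, and the log2 difference was 3.07 (SE 0.59, B 1.82, 8.38-fold). A_51_P187645 ran from 2.58 through 5.66 to 6.57 in the young and from 6.39 through 8.06 to 9.54 in the aged. One aged array lay below the highest young array, and the log2 difference was 2.94 (SE 0.64, B 0.64, 7.66-fold). In the middle-aged mice these probes were 1.38 (SE 0.62) and 1.16 (SE 0.67) above the young mean on the log2 scale.

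Aged arrays 2, 4 and 6 held the 3 highest values of all 3 probes, and aged arrays 1, 3 and 5 were nearer to the middle-aged ones. In the plot of member probes by array these arrays stand apart for the alpha constant probes and for Igj. Aged arrays 2, 4 and 6 also had more spots well above background, counted before outlier spots were dropped. Their shares were 68.4%, 67.5% and 69.0%, against 64.8%, 62.4% and 64.1% on aged arrays 1, 3 and 5. The part of this difference between arrays in the member values was not tested. Of all 27618 probes tested in this contrast 0.692% were called, and for 0.605% every aged array lay above every young array. Both shares are background to the choice of the genes. In the middle-aged contrast 0.164% of 28031 probes were called and no member was, while with slide as a fixed block A_51_P180159 was called (2.74, B 0.13). Over all probes, 3146 of that contrast had an unadjusted p under 0.05 by limma.

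**Figure D1:**
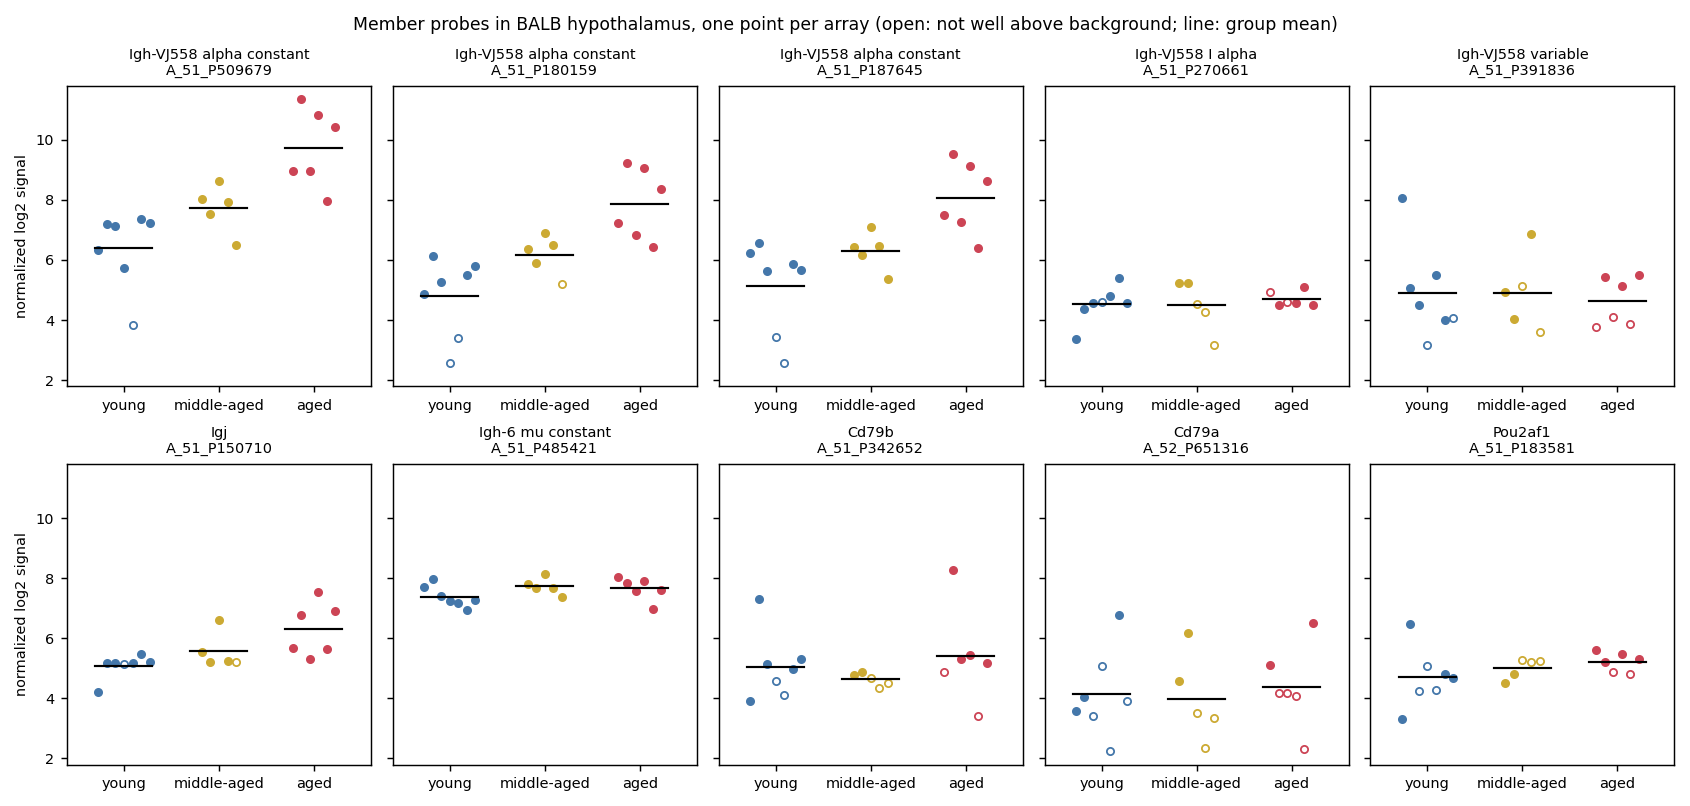
Normalised log2 signal (vertical axis) of 10 member probes in the BALB hypothalamus, covering the genes read on most arrays, 1 point per array, in young (n = 7), middle-aged (n = 5) and aged (n = 6) mice. Open points were not well above background and the line is the group mean. The alpha-end probe ran from 3.82 to 7.36 in the young and from 7.97 to 11.35 in the aged, whereas the Igh-6 mu constant probe kept overlapping ranges, 6.94 to 7.98 and 6.97 to 8.05.

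The variable-segment and I alpha probes of the same gene name behaved differently. The I alpha probe, whose RNA is usually a germline transcript made before a switch to IgA, ran from 3.37 to 5.41 in the young and from 4.49 to 5.08 in the aged, a log2 difference of 0.17 (SE 0.31). The variable-segment probe A_51_P391836 ran from 3.17 to 8.06 in the young and from 3.78 to 5.51 in the aged, a log2 difference of -0.27 (SE 0.67). Both sets of ranges overlapped throughout. The other 4 variable-segment probes were well above background on 2 arrays of the cohort at most and were not tested. Young array 1, which had the largest share of probes above background in the cohort (89.3%), was among those arrays for all 4 and held the highest value of A_51_P391836.

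Both Igh-6 probes tested in the BALB hypothalamus, for the heavy chain of IgM, had small differences. The mu constant probe ran from 6.94 through 7.28 to 7.98 in the young and from 6.97 through 7.73 to 8.05 in the aged, a log2 difference of 0.27 (SE 0.18). The probe between mu and delta ran from 10.30 through 10.42 to 10.75 and from 10.51 through 10.68 to 10.85, a log2 difference of 0.19 (SE 0.09). Both groups overlapped for both probes. In middle-aged mice the differences were 0.35 (SE 0.19) and 0.20. The mu probe A_52_P571419, which the files do not name Igh-6 and which was singled out after its values were seen, differed by 0.82 between aged and young (SE 0.19, B 0.21) and was 0.57 to 0.88 higher on the 3 slides with both ages.

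Igj was higher in some aged mice. The probe A_51_P150710 was at 4.21, 5.18, 5.18, 5.15, 5.16, 5.46 and 5.20 in young arrays 1 to 7 and at 5.68, 6.76, 5.29, 7.55, 5.64 and 6.90 in aged arrays 1 to 6. Aged arrays 2, 4 and 6, the ones highest for the alpha constant probes, were highest here too, and aged array 3 lay within the young range. The log2 difference was 1.23 (SE 0.34, B -1.35, 2.34-fold), and with slide as a fixed block it was 1.64 (B 4.08). Both describe the cohort whose values chose the genes and are no test. Its second probe, A_51_P150705, was well above background on aged arrays 2, 4 and 6 and on no other aged array, at 5.07, 5.85 and 5.35. Those arrays also had larger shares of all probes above background than the other aged arrays.

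The genes of the B cell surface were near background in the BALB hypothalamus. Cd79b, whose product carries the receptor's signal into the cell, ran from 3.90 to 7.30 in the young and from 3.42 to 8.26 in the aged, a log2 difference of 0.37 (SE 0.60). Its highest values, young array 2 and aged array 2, came from arrays of 1 slide. Cd79a, the partner of Cd79b, was well above background on 7 of 18 arrays and was not tested between aged and young. Ms4a1 (CD20) passed on 3 arrays with A_51_P277683 and on 2 arrays with A_52_P483336. Pou2af1 ran from 3.31 to 6.49 in the young and from 4.80 to 5.61 in the aged, a log2 difference of 0.51 (SE 0.35), with overlapping groups.

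Counted by gene at the brightest probe, 5 genes were tested between aged and young, all 5 had a higher aged mean and 1 was called. Their median log2 difference was 0.51, against 0.01 for all probes tested. A member passed this filter in part through the group where it was high, so these counts support nothing further. In bulk tissue, more B lineage cells and more RNA per cell cannot be told apart.

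Arrays on 1 slide were compared with each other as well. On the 3 slides that held both ages, the alpha-end probe was 1.65, 4.08 and 5.14 higher in the aged on the log2 scale, and Igj was 1.43, 1.48 and 2.05 higher. A_51_P187645 was 0.15, 3.51 and 4.78 higher on the same slides. Aged array 2 also held signal of pituitary hormones, with Gh at 17.9 and Prl at 17.4. A score of 6 pituitary genes, the mean log2 deviation of their probes from the cohort mean, ran from -2.32 to 7.08 in the aged and from -2.47 to 2.19 in the young. With young array 1 and aged array 2 both left out, a choice made after the data were seen, the alpha-end probe differed by 3.07 (B 0.52), A_51_P180159 by 2.88 (B 0.16), A_51_P187645 by 2.90 (B -0.18, no longer called) and Igj by 1.02 on the log2 scale.

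Other genes of the B lineage were read from lists. Among 24 genes of B cell identity and receptor signalling, 17 were tested in the BALB hypothalamus, 15 had a higher aged mean and 1 was called, with a median log2 difference of 0.39. The called gene was Blnk, an adaptor below the B cell receptor that microglia can also express, which ran from 10.19 to 10.80 in the young and from 10.80 to 11.33 in the aged (log2 difference 0.52, SE 0.11, limma adjusted p = 0.0432). Of 16 genes of plasma cells and antibody secretion 14 were tested, 9 had a higher aged mean and none was called, with a median of 0.02. Of 17 other immunoglobulin genes 3 were tested and none was called. That list goes by gene name and leaves out the mu probe A_52_P571419, whose B was above 0 in this contrast.

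Among 10 measured genes of B cell chemokines and homing, 8 were tested and 1 was called. Cxcl13, a chemokine that draws B cells into follicles, was well above background on none of 7 young and on all 6 aged arrays, where it ran from 5.21 through 6.14 to 7.25. It was at least 4.58-fold higher in the aged (limma adjusted p = 0.000541), the young taken per array at the dimmest signal well above background or the probe's own if higher. Cxcl13 passed the filter only through the aged arrays, where it was high. The lists were also chosen with earlier results of these data known, so this p-value only describes the arrays. The chemokine and homing score ran from -0.52 to 0.04 in the young and from 0.08 to 0.82 in the aged.

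Markers of neighbouring tissues were counted beside these results. Of 7 choroid plexus genes 5 were tested and 1, Aqp1, was called higher (log2 difference 1.49, SE 0.35), with a score of -0.68 to -0.07 in the young and -0.13 to 0.74 in the aged. Of 10 microglial genes all were tested, and Cd68 (log2 difference 0.71, SE 0.12) and Adgre1 (0.60, SE 0.11) were called. No gene of meninges and fibroblasts (9 of 9 tested), T cells (9 of 12) or red blood cells (4 of 5) was called. The meningeal score ran from -1.11 to 1.09 in the young and from -0.92 to 1.30 in the aged. Their part in the antibody values was not tested.

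The arrays' order was shared within probe classes. Over the 18 BALB hypothalamus arrays, which share young and aged groups and normalisation, the 3 alpha constant probes had Pearson's r of 0.95 to 0.97 with each other. Against Igj their median r was 0.79, against the Igh-6 mu constant probe 0.55, against Cd79b 0.51, against the I alpha probe 0.10 and against the variable-segment probes -0.11. Most variable-segment probes were rarely well above background in this cohort, which limits the last value. The 2 Igj probes had r = 0.88 with each other and the 2 Ms4a1 probes r = 0.26.

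**Figure D2:**
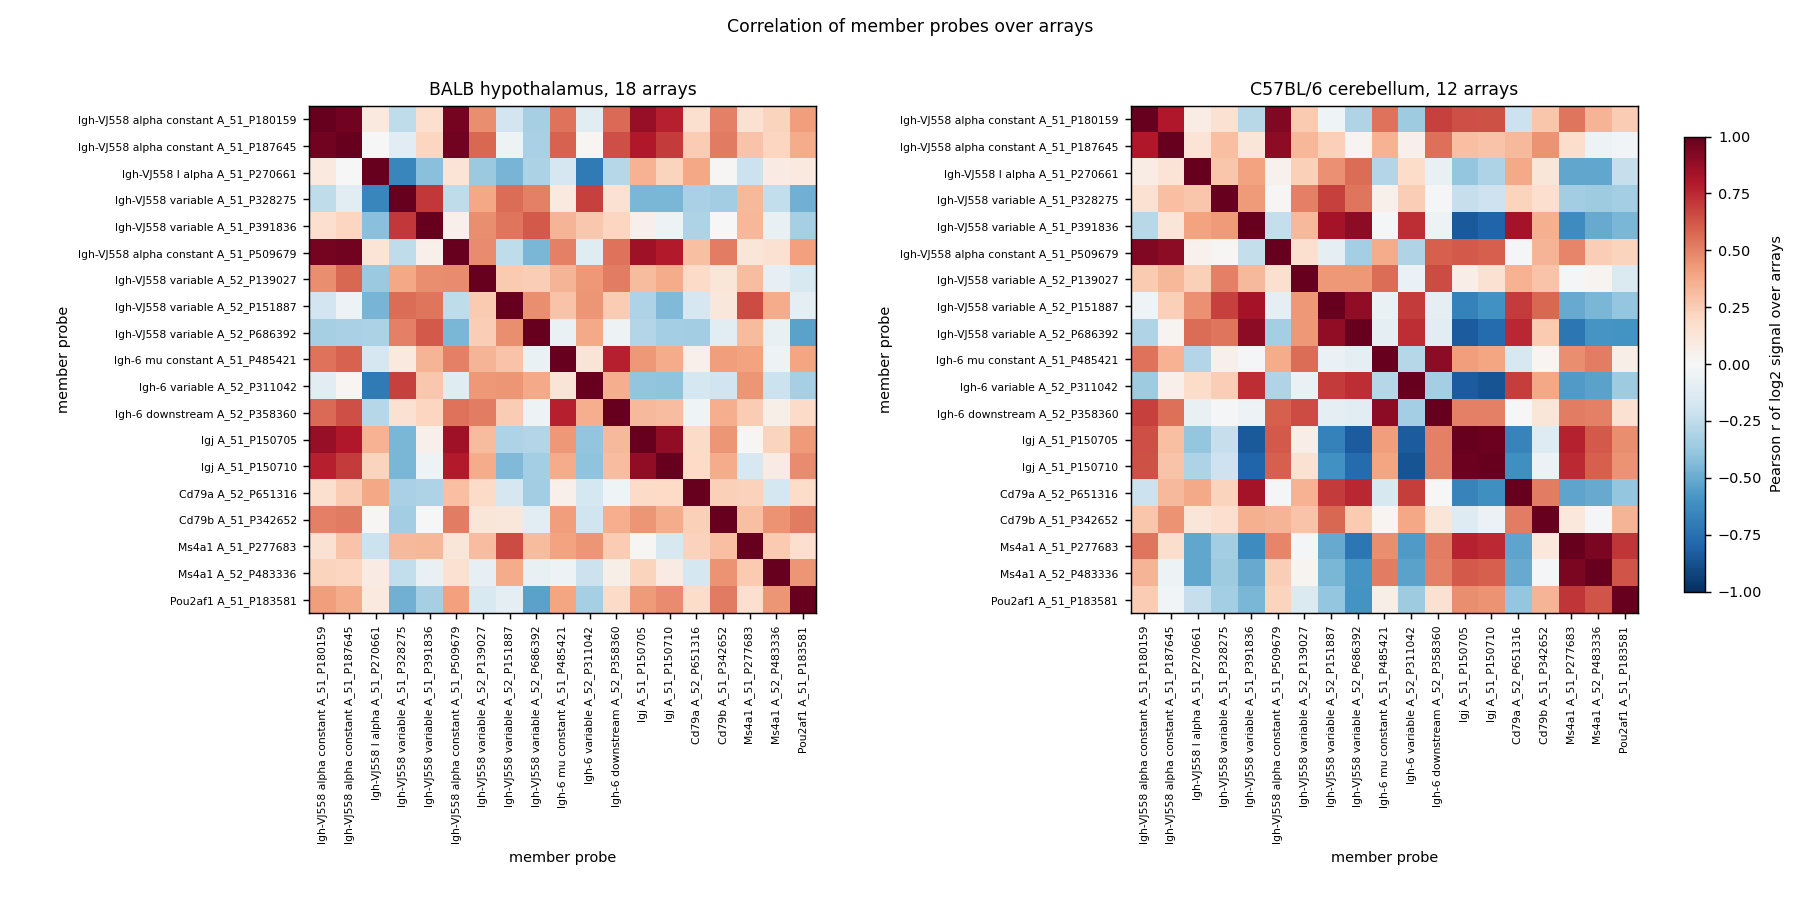
Pearson's r between member probes over the 18 arrays of the BALB hypothalamus and the 12 arrays of the C57BL/6 cerebellum, with colour giving r from -1 to 1. The alpha constant probes had r of 0.95 to 0.97 with each other in the BALB hypothalamus and a median r of -0.11 with the variable-segment probes, most of which were rarely well above background there.

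By likeness over the same 18 arrays, the genes closest to the alpha-end probe among 18940 were Ly6g6e (r = 0.860), Nckap1l (0.836), Abcb4 (0.817), 4933417E01Rik (0.815) and Anxa4 (0.800). Over the 20 CBA hypothalamus arrays and 19749 genes they were Klc3 (0.83), Gp5 (0.824), Sdcbp2 (0.812), Tuba8 (0.808) and Spint1 (0.806). The lists hold no gene in common. These correlations describe the arrays and include the age groups.

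In the CBA hypothalamus no member was called in either older group, where 0.372% of 27688 probes were called between aged and young and 0% of 28290 between middle-aged and young. The alpha-end probe was at 2.72, 4.82 and 6.99 (lowest, median, highest) in the young and 3.14, 6.49 and 8.04 in the aged, and at 7.95, 4.32, 6.70, 6.79 and 7.64 in the middle-aged. All 3 groups overlapped. The log2 difference was 0.73 for aged mice (SE 0.79, limma adjusted p = 0.929) and 1.55 for middle-aged mice (SE 0.90, adjusted p = 1). On 5 slides the aged arrays differed from the young by -0.69, -0.37, 1.97, 1.90 and 0.87.

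The other CBA members were close to background or unmoved beyond their spread. A_51_P180159 differed by 0.43 (SE 0.39, limma adjusted p = 0.907) and A_51_P187645 by 0.61 (SE 0.53, adjusted p = 0.898) between aged and young. The Igh-6 mu constant probe ran from 6.48 to 7.20 in the young and from 5.60 to 7.51 in the aged (log2 difference 0.18, adjusted p = 0.936). Cd79b was well above background on 2 of 7 young and 5 of 8 aged arrays and differed by 0.61 (SE 0.31, adjusted p = 0.776), with overlapping groups. Igj, the joining chain, gave no value above background on any of the 20 arrays. Cd79a differed by -0.34 (adjusted p = 0.942) and Pou2af1 by 0.07 (adjusted p = 0.971).

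For 0.0470% of the probes tested in CBA every aged array lay above every young one, and none of them was a member. Over the 5 genes tested, 4 had a higher aged mean, and the median log2 difference was 0.18 against -0.01 for all probes. At an unadjusted p under 0.05 limma listed 1801 probes in the aged contrast, none of them a member's, and 785 in the middle-aged contrast, 1 of them a member's. Of 13 B cell identity genes tested none was called, and of 10 other immunoglobulin genes tested 8 had a higher aged mean and none was called, with a median of 0.30. That list goes by gene name and leaves out the mu probe A_52_P571419. This probe, chosen after its values were seen, was called higher in the aged and is given under Other observations.

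In the C57BL6/J hypothalamus 0.118% of 34691 probes were called and no member was among them. Signals of the alpha-end probe were 9.21, 7.81, 4.65, 2.87 and 5.39 in the young and at 4.84, 7.85, 7.37, 7.02 and 7.72 in the aged. The widest spread was among the young, with young array 1 above every aged array, and the log2 difference was 0.97 (SE 1.09, limma adjusted p = 0.997). Aged arrays lay above the young on 3 of 5 slides. A_51_P180159 was at 8.18, 7.23, 5.86, 6.21 and 6.29 in the young and at 6.07, 7.43, 6.91, 6.71 and 7.40 in the aged, a log2 difference of 0.15 (SE 0.43).

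Igh-6 and Igj did not pass the test in that cohort. The mu constant probe of Igh-6 was at 10.31, 10.04, 9.15, 8.85 and 8.51 in the young and at 8.76, 9.81, 9.14, 10.68 and 9.91 in the aged, a log2 difference of 0.29 (SE 0.42). Igj was at 7.31, 7.23, 7.17, 6.96 and 7.10 in the young and at 6.81, 6.85, 7.23, 7.10 and 6.71 in the aged, a log2 difference of -0.22 (SE 0.12), with differences of -0.50 to -0.01 on the 5 slides, all lower in the aged. Both pairs of groups overlapped, and the alpha constant probes had a median r of 0.14 with Igj here. Cd79b differed by 0.05, Cd79a by -0.21 (SE 0.23), Pou2af1 by -0.19 (SE 0.15) and Ms4a1 (A_51_P277683) by -0.61 (SE 0.30) on the log2 scale.

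Adjusted p-values of the 16 member probes tested in the C57BL6/J hypothalamus were 0.997 or 0.998, and at an unadjusted p under 0.05 limma listed 1576 probes and no member probe. Of 7 genes 3 had a higher and 4 a lower aged mean, with a median of -0.19 against -0.01 for all probes. Aged array 1 held Gabra6 at 13.0, inside the range of the C57BL/6 cerebellum, and had the lowest aged signal of the alpha-end probe (4.84). Its slide gave the lowest aged to young log2 difference of that probe (-4.37). The part of tissue in the values of this cohort was not tested.

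In the C57BL/6 cerebellum the alpha constant probes had higher aged means, without passing the test. For the alpha-end probe the values were 5.88, 5.39, 8.16 and 3.78 in the young, at 5.99 and 4.78 in the middle-aged and at 8.15, 8.07, 8.73, 7.47, 8.43 and 8.90 in the aged. Young array 3 lay within the aged range, and the other young and both middle-aged arrays lay below all aged arrays. The log2 difference between aged and young was 2.49 (SE 0.66, limma adjusted p = 0.413, B -1.44, 5.63-fold), and that between middle-aged and young was -0.41 (SE 0.90, adjusted p = 0.939). Probes called were 0.299% of 34732 between aged and young and 0.0194% of 36098 between middle-aged and young.

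**Figure D3:**
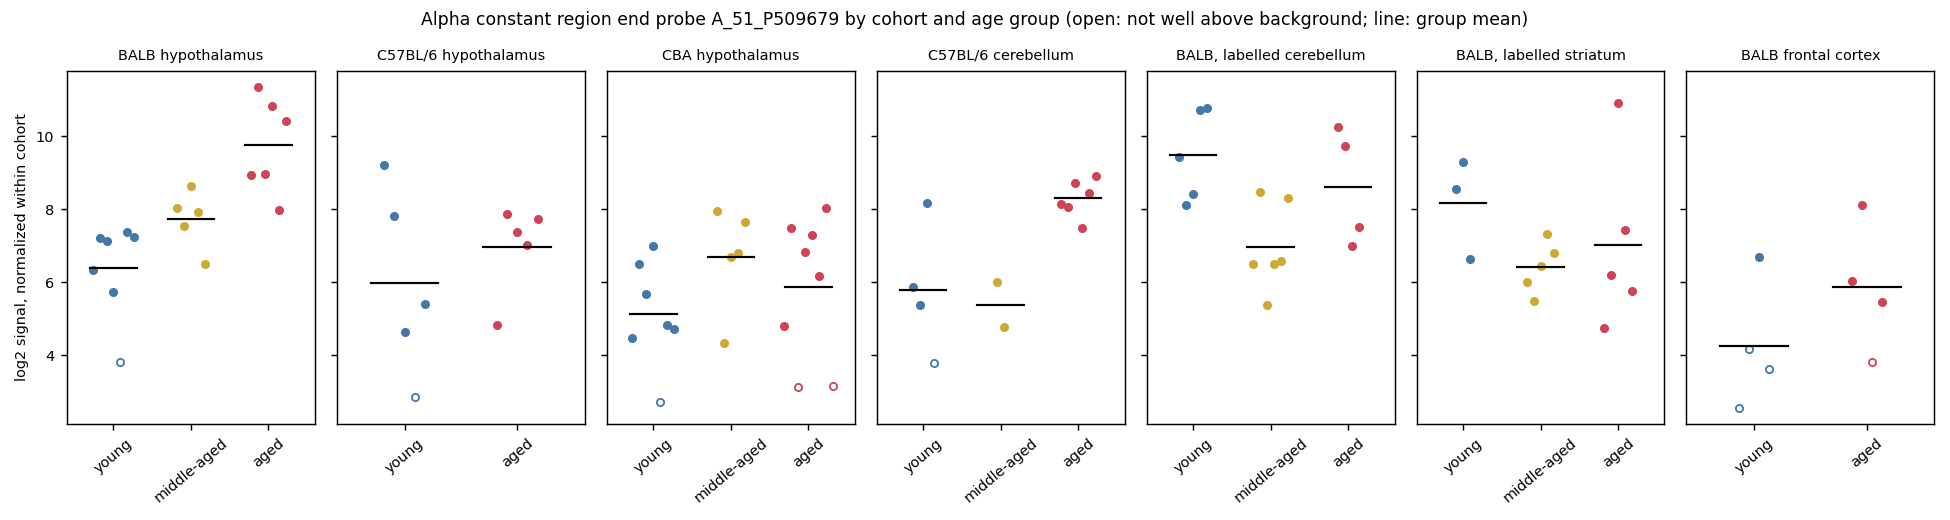
Normalised log2 signal (vertical axis) of the alpha-end probe of Igh-VJ558 in each of the 7 cohorts, 1 point per array by age group, open where not well above background. Lines are group means, and levels are comparable within a panel only. Aged and young separate in the BALB hypothalamus and overlap in the other panels, in the C57BL/6 cerebellum through young array 3 at 8.16. The genes were chosen by the BALB hypothalamus values, so the separation there is a description and no contrast with the other panels. In that cohort 0.605% of all probes tested had every aged array above every young array.

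The other 2 alpha constant probes followed it. A_51_P187645 was at 6.50, 5.79, 7.26 and 5.08 in the young and at 7.46, 7.19, 7.77, 6.99, 7.43 and 8.26 in the aged, a log2 difference of 1.36 (SE 0.37, limma adjusted p = 0.435, 2.57-fold). A_51_P180159 was at 6.78, 5.79, 7.24 and 5.98 in the young and at 7.18, 7.05, 7.75, 6.79, 7.76 and 7.61 in the aged, a log2 difference of 0.91 (SE 0.30, adjusted p = 0.579, 1.88-fold). Young array 3 was again the only young array within the aged range. These 3 probes were the member probes with an unadjusted p under 0.05, among 2466 such probes in all. For 1.60% of the probes every aged array lay above every young one.

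The call depended on young array 3, the highest young array for these probes. Leaving out the highest young array necessarily widens the difference. Without it, the alpha-end probe differed by 3.26 (B 2.46) and A_51_P187645 by 1.72 (B 0.64) on the log2 scale, so that 1 member gene was called, where 0.405% of 35340 probes were called against 0.299% with all arrays. On the 3 slides with both ages the alpha-end probe was 2.27, 3.01 and 1.98 higher in the aged, A_51_P187645 was 0.96, 1.69 and 1.04 higher and A_51_P180159 was 0.40, 1.61 and 0.67 higher. With normexp background correction the alpha-end difference was 1.32.

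The variable-segment probes, which were above background on more arrays here than in the BALB hypothalamus, did not share this pattern. Their log2 differences between aged and young were -0.30 (A_51_P391836), 0.41 (A_51_P328275), 0.28 (A_52_P139027), 0.05 (A_52_P151887) and -0.12 (A_52_P686392), and that of the I alpha probe was 0.16. In the middle-aged mice A_51_P328275 was 1.77 above the young (limma adjusted p = 0.529). The alpha constant probes had r of 0.80 to 0.92 with each other over the 12 arrays and a median r of 0.03 with the variable-segment probes. The variable-segment probes had a median r of 0.70 with Cd79a and -0.64 with Igj, and Igj had a median r of 0.68 with Ms4a1, a description over the same 12 arrays.

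Igh-6 and Igj were measured well in this cerebellum. The Igh-6 mu constant probe was at 10.85, 9.24, 9.89 and 9.33 in the young and at 9.65, 10.05, 9.96, 9.51, 9.85 and 9.91 in the aged, a log2 difference of -0.01 (SE 0.27). Igj was at 6.00, 5.32, 6.33 and 5.37 in the young, at 5.50 and 4.40 in the middle-aged and at 6.06, 6.92, 6.64, 6.56, 6.67 and 4.96 in the aged. Aged array 6 was below every young array and the other aged arrays overlapped with or exceeded the young, so that the log2 difference of 0.54 (SE 0.38, limma adjusted p = 0.781) was within the spread. Middle-aged mice differed by -0.81 (adjusted p = 0.671). Igj and the alpha constant probes had a median r of 0.61.

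**Figure D4:**
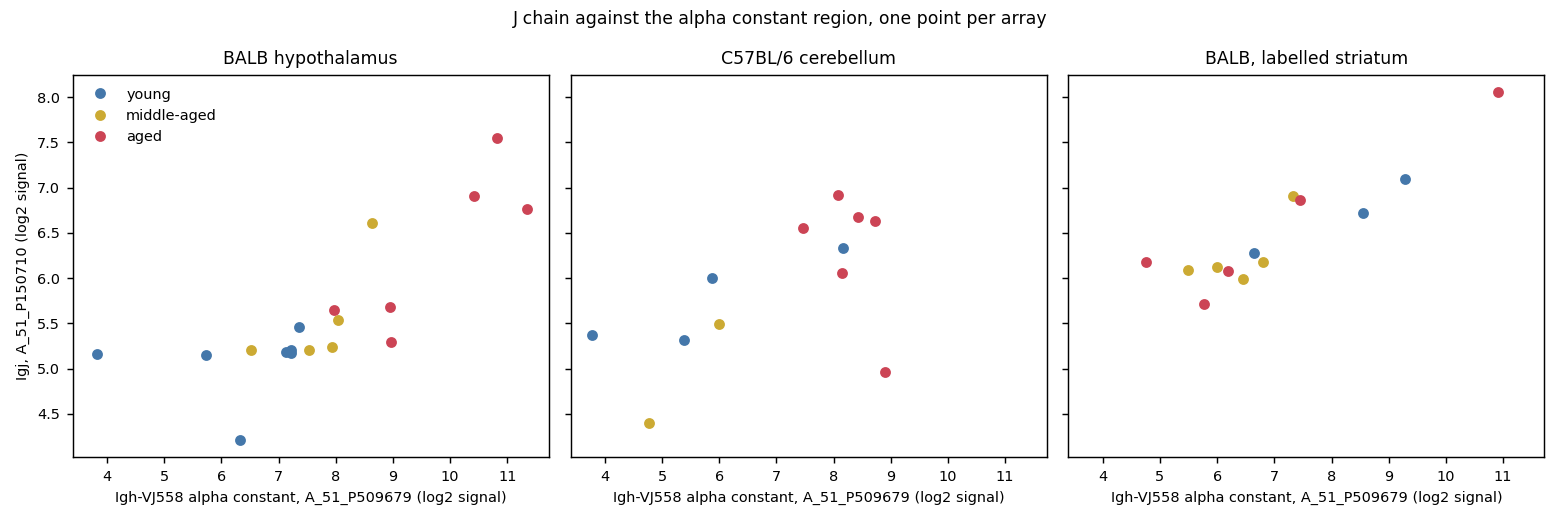
Normalised log2 signal of Igj (A_51_P150710, vertical axis) against the alpha-end probe of Igh-VJ558 (horizontal axis), 1 point per array coloured by age group, in the BALB hypothalamus (n = 18), the C57BL/6 cerebellum (n = 12) and the samples labelled BALB striatum (n = 13). Pearson's r was 0.79, 0.60 and 0.91, and in the C57BL/6 cerebellum aged array 6 was highest for the alpha-end probe (8.90) with Igj at 4.96. In the cohorts not drawn r was 0.24 (C57BL6/J hypothalamus), 0.23 (CBA hypothalamus), 0.63 (labelled BALB cerebellum) and -0.23 (frontal cortex), all described without a p-value.

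Of the surface genes, Ms4a1 had a lower mean in the 2 middle-aged cerebella than in the young, without passing the test. A_52_P483336 was at 5.21, 4.70, 4.96 and 4.50 in the young, 3.82 and 3.13 in the middle-aged and 4.28, 4.63, 5.41, 4.60, 3.92 and 4.06 in the aged. The log2 difference between middle-aged and young was -1.37 (SE 0.37, limma adjusted p = 0.513), and the other Ms4a1 probe differed by -1.09 (SE 0.39, adjusted p = 0.513). Between aged and young the probes differed by -0.36 (adjusted p = 0.798) and 0.01. Cd79b was at 6.60, 7.14, 6.98 and 6.73 in the young and at 6.49, 7.14, 7.65, 7.08, 7.10 and 7.48 in the aged, a log2 difference of 0.30 (SE 0.23, adjusted p = 0.798). Cd79a differed by 0.17 (adjusted p = 0.919) and Pou2af1 by -0.01.

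Over all 7 genes of the C57BL/6 cerebellum, 5 had a higher aged mean and the median log2 difference was 0.18 against -0.01 for all probes. In the middle-aged contrast 2 had a higher mean and the median was -0.36 against -0.03, with 3 member probes among the 3372 at an unadjusted p under 0.05.

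Few listed genes were called in the C57BL/6 cerebellum. Of 23 B cell identity genes tested 14 had a higher aged mean and 1 was called, Cd72, an inhibitory co-receptor of B cells, at 5.98 to 6.36 in the young and 6.79 to 7.32 in the aged (log2 difference 0.92, SE 0.14, limma adjusted p = 0.0568). Of 10 chemokine and homing genes 1 was called, Cxcl13, at 3.61 to 4.16 in the young and 4.51 to 6.89 in the aged (log2 difference 1.82, SE 0.38, adjusted p = 0.186). Of 12 T cell genes 11 had a higher aged mean and 2 were called, Ccl5 (1.39, SE 0.28, adjusted p = 0.151) and Nkg7 (1.15, SE 0.16, adjusted p = 0.0442). None of 15 plasma cell genes or 13 other immunoglobulin genes tested was called. The T cell score ran from -0.54 to -0.09 in the young and from -0.03 to 0.63 in the aged, and its part in the member values was not tested.

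In the samples labelled BALB cerebellum, where age and tissue cannot be told apart, 5.96% of 32542 probes were called between aged and young and no member was, though 4 member probes were among the 8414 with an unadjusted p under 0.05 by limma. The alpha-end probe was at 9.43, 8.12, 8.42, 10.70 and 10.76 in the young and at 10.24, 9.72, 7.00 and 7.50 in the aged, which overlapped (log2 difference -0.87, SE 0.82, limma adjusted p = 0.554). It was at 6.49, 8.48, 5.37, 6.49, 6.57 and 8.30 in the middle-aged, whose Gabra6 and Pmch ranges overlapped with those of the young. Only middle-aged arrays 2 and 6 reached the young range, the log2 difference being -2.54 (SE 0.74, unadjusted p = 0.0039, adjusted p = 1, 5.80-fold lower). In that contrast 0% of 32821 probes were called, and 183 had an unadjusted p under 0.05 by limma, 4 of them member probes. A_51_P180159 differed by -1.80 (SE 0.55) and A_51_P187645 by -2.25 (SE 0.61).

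Igh-6 was lower in the labelled aged cerebella. A_52_P358360 was at 11.37, 11.12, 11.69, 11.65 and 11.61 in the young and at 11.09, 10.02, 8.39 and 10.38 in the aged (log2 difference -1.52, SE 0.38, limma adjusted p = 0.016, B -1.26). The mu constant probe was at 7.95, 7.82, 8.65, 7.68 and 8.33 in the young and at 5.44, 6.98, 6.18 and 7.82 in the aged, with aged array 4 in the young range (log2 difference -1.48, SE 0.40, adjusted p = 0.0232, B -1.77). In the middle-aged these probes differed by -0.15 and -0.09.

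A call by adjusted p would therefore include Igh-6 and Igh-VJ558, where 13.5% of all probes passed. The Igh-VJ558 probe that passed was the variable-segment probe A_52_P151887, at 5.26, 5.55, 6.29, 5.48 and 5.52 in the young and 4.76, 3.60, 4.34 and 4.58 in the aged (log2 difference -1.30, SE 0.35, limma adjusted p = 0.0215). A_52_P686392, which shares most of that sequence, differed by -1.15 (limma adjusted p = 0.0742). Of 10 microglial genes 4 were called lower in the same contrast, and among the B cell identity genes Bank1 (-1.61), Blnk (-1.50) and Tnfrsf13b (-0.98) were called lower and Ebf1 (1.52) higher. Igj was at 7.55, 7.36, 6.59, 8.18 and 8.31 in the young and 7.90, 7.36, 6.47 and 6.95 in the aged, which overlapped (log2 difference -0.43, adjusted p = 0.497).

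In the samples labelled BALB striatum 0% of 32235 probes were called between aged and young and 0% of 32984 between middle-aged and young. At an unadjusted p under 0.05 limma listed 164 and 781 probes, none of them a member's. Among these samples the alpha-end probe was at 8.56, 9.29 and 6.65 in the young, at 6.01, 5.49, 6.45, 7.32 and 6.80 in the middle-aged and at 4.75, 6.18, 10.91, 7.44 and 5.76 in the aged. Aged array 3, the one with low Gabra6, was the highest, and Igj was highest there too. Igj was at 6.72, 7.10 and 6.27 in the young and 6.18, 6.08, 8.06, 6.86 and 5.71 in the aged. The log2 differences between aged and young were -1.16 for the alpha-end probe (SE 1.11, adjusted p = 1) and -0.12 for Igj. The second Igj probe, A_51_P150705, was at 5.46, 5.76 and 5.16 in the young and at 4.91, 4.86, 2.69, 4.33 and 5.12 in the middle-aged (log2 difference -1.08, limma adjusted p = 0.904). Igh-6 (-0.13 and -0.01), Cd79a (0.01), Cd79b (0.14) and Pou2af1 (0.09) had aged to young log2 differences near 0.

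In the frontal cortex of female mice 0% of 31465 probes were called, and 1469 had an unadjusted p under 0.05 by limma, none of them a member's. The alpha-end probe was at 2.57, 4.16, 6.70 and 3.62 in the young and at 6.04, 8.11, 3.82 and 5.47 in the aged. It was well above background on 1 young and 3 aged arrays, the groups overlapped, and the log2 difference was 1.60 (SE 1.03, adjusted p = 0.841), with 3.71 on 1 slide and -0.51 on the other. Igj (A_51_P150710) was above background on none of 4 young and on 3 of 4 aged arrays. Its signals overlapped, at 5.37, 4.35, 4.11 and 4.76 in the young and 3.42, 5.12, 4.87 and 5.70 in the aged. Cd79b was at 5.66, 6.08, 5.57 and 6.09 in the young and 5.50, 5.92, 3.87 and 4.98 in the aged (log2 difference -0.78, SE 0.41, adjusted p = 0.841). All 5 genes tested had a lower aged mean at their brightest probe, with a median of -0.35 against 0.00 for all probes, but for Igh-VJ558 that probe was the I alpha probe and not the alpha-end probe. The alpha constant probes had r of 0.64 to 0.83 with each other over the 8 arrays.

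**Figure D5:**
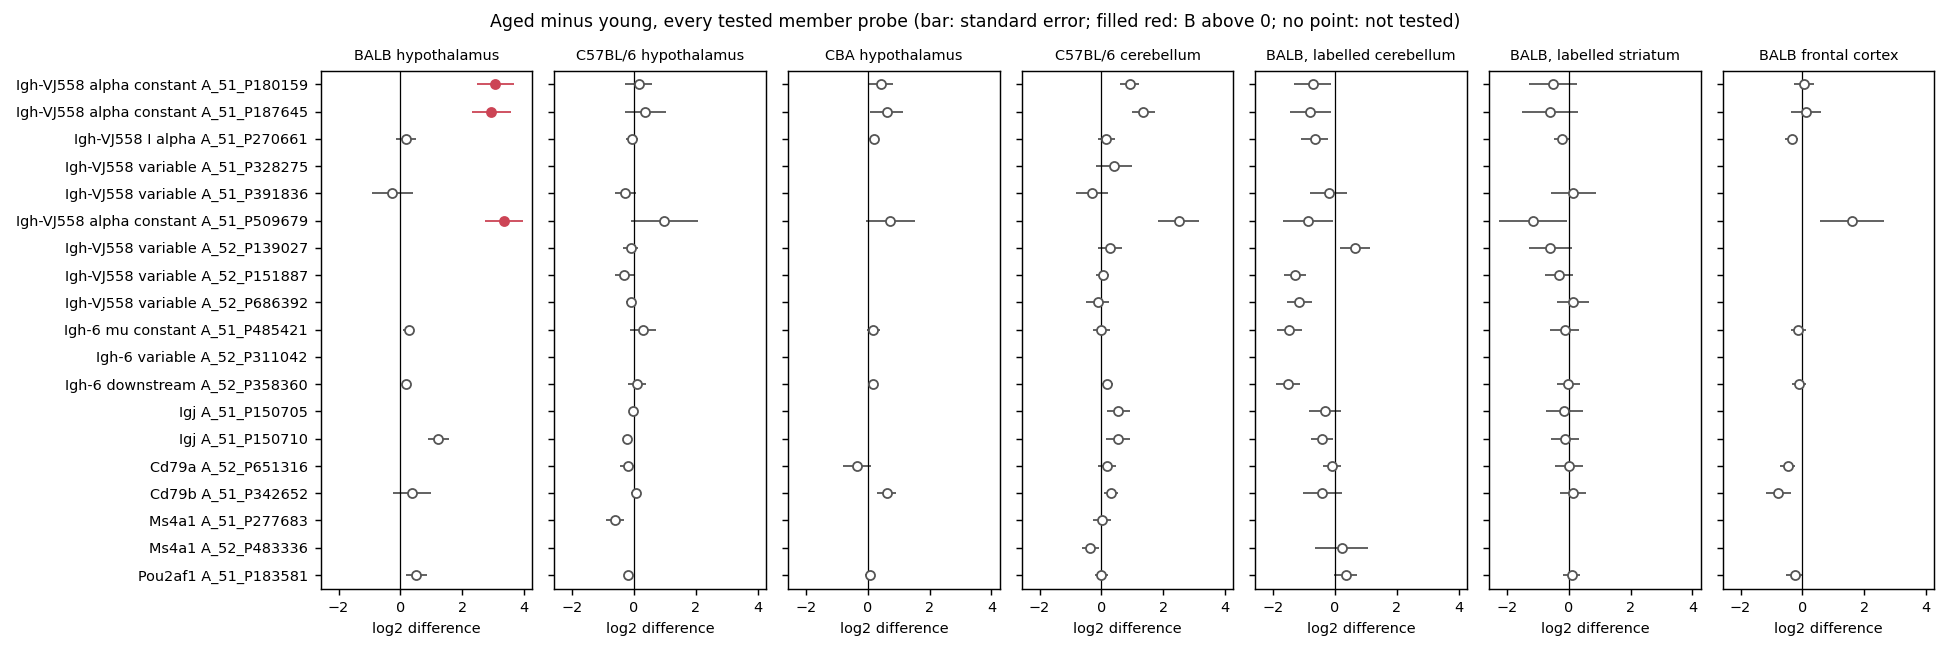
Log2 difference between aged and young (horizontal axis) of every member probe tested in each of the 7 cohorts, with bars of 1 SE. Filled red points have B above 0. They are the alpha constant probes of the BALB hypothalamus, at 3.34, 3.07 and 2.94, the cohort by whose values the genes were chosen, so the fill there is a description and no contrast with the other cohorts.

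Differences between cohorts in the size of the aged to young change were not tested, since the cohorts were normalised separately and ran on different slides.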

How the data were processed

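The deposited files hold spot intensity values from 1-colour Agilent arrays, which the authors extracted from scans of Cy3-labelled, amplified RNA with Agilent Feature Extraction (9.1 in the submitters' notes, while some file headers name other versions). The series value table, log2 values that the authors quantile normalised, served as an alternative. Control and outlier spots were dropped, log2 processed signals of 1 probe's spots were averaged and quantile normalised within a cohort, and limma 3.58.1 (R 4.3.3, data.table in version 1.17.8, statmod 1.5.0) was fitted over all age groups with a prior proportion of 0.01 and Benjamini-Hochberg adjustment over all probes tested. The scripts were tested on simulated data. The number of arrays limits precision. Members and lists were chosen with earlier results of these data known. Genes named beside the members were, per list and cohort, up to 5 called and up to 3 others by size of difference, and the 5 most alike by correlation. Alternatives covered background, scaling, filter, slide, replicate block, value table and left-out arrays.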

Additional observations from a re-analysis of the deposited data

Results flagged for a closer look

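In groups of 4 to 10 arrays, single values that stood far from the rest were listed for the brightest probe of each gene. Of 101 groups tested 11 held such a value, and chance gives about 1 in 20.

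In the BALB hypothalamus Igj was low on young array 1 (4.21, nearest 5.15) and high on middle-aged array 3 (6.61, nearest 5.54), and Cd79b was high on young array 2 (7.30, nearest 5.30). In the CBA hypothalamus aged array 8 was low for Igh-6 (8.84, nearest 9.39) and for Pou2af1 (3.80, nearest 4.59), and young array 7 was low for Cd79a (2.05, nearest 3.86). In the samples labelled BALB cerebellum Cd79a was low on young array 2 (4.22, nearest 4.73) and middle-aged array 2 (4.18, nearest 4.80), and Pou2af1 was low on middle-aged array 2 (4.04, nearest 4.99). In those labelled BALB striatum middle-aged array 4 was high for Igj (6.91, nearest 6.18) and Cd79a (6.37, nearest 4.44). Each of CBA aged array 8, BALB cerebellum middle-aged array 2 and BALB striatum middle-aged array 4 accounted for 2 of the values.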

How the results depend on the processing

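Over 24 counts and medians, 241 of 252 values under other settings and 240 of 244 with 1 array left out stayed close (a count within 1.5 times, a median moved by less than 1 replicate SD), and none changed the direction of a called value. A stricter filter gave medians of 1.23 (aged) and 0.77 (middle-aged) in the BALB hypothalamus and 0.78 in middle-aged CBA. With slide as a fixed block the BALB hypothalamus had 2 genes called and a median of 0.94 (aged) and 1 gene and 0.73 (middle-aged), and the labelled BALB cerebellum had 1. The share of all probes called with that block is not given here, so these counts are no result about the members. Calls by adjusted p gave 2 genes in the labelled BALB cerebellum, where 13.5% of all probes passed. The 75th percentile scaling turned the middle-aged C57BL/6 cerebellum median to 0.42, and the value table gave a frontal cortex median of -0.13. The cause of these changes was not tested. Leaving out single arrays gave 0 to 1 genes in the aged C57BL/6 cerebellum (1 without young array 3, where 0.405% of all probes were called). It gave 0 to 1 in the labelled aged BALB cerebellum, with 1 without aged array 1 or 4. There 6.72% and 7.83% of all probes were called, against 5.96% with all arrays, and age and tissue cannot be told apart. Medians were -0.71 to -0.24 in the middle-aged C57BL/6 cerebellum.

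In the BALB hypothalamus, whose values chose the members so that this is a description, the alpha-end difference was 2.29 to 4.14 over settings and 2.91 to 3.69 with 1 array left out. A_51_P187645 lost its call under 75th percentile scaling (2.85), with only both age groups fitted (2.92) and without young array 4 or aged array 2, 4 or 6. Igj was called with slide as a fixed block alone (1.64). Same-numbered arrays had a median r of -0.27 to 0.19 in the 6 male cohorts, each with pairs below 0. In the frontal cortex both pairs were positive (0.34 and 0.86), too few to pair the samples. With the replicate block the alpha-end difference was 3.48 in the BALB hypothalamus and 2.31 in the C57BL/6 cerebellum, and no count of member genes changed. Dim probes such as Ms4a1 and Cd79a limit what could be seen.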

Other observations

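The mu probe A_52_P571419, which has no member name and was chosen after its values were seen, was higher in aged CBA hypothalamus. It was at 5.85, 6.04, 5.98, 6.88, 6.46, 6.11 and 6.18 in the young, 6.46, 6.80, 6.64, 7.01 and 6.96 in the middle-aged and 7.32, 7.23, 7.19, 7.29, 7.75, 7.48, 7.54 and 7.36 in the aged. Every aged array lay above every young and middle-aged array, and the log2 difference between aged and young was 1.18 (SE 0.13, limma adjusted p = 0.000631). Aged arrays were higher on all 5 slides, by 0.62 to 1.51, and the call was kept in 10 of 10 alternatives and with each of 15 arrays left out. The middle-aged difference was 0.56 (SE 0.15, adjusted p = 1).

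In the BALB hypothalamus the same probe differed by 0.82 in the aged (SE 0.19, limma adjusted p = 0.0646, B 0.21) and by 0.82 in the middle-aged (SE 0.20, adjusted p = 0.24). The aged call was lost in 3 of 11 alternatives and without 9 of the 13 arrays in turn. In the other cohorts it was not called, with log2 differences of 0.32 in the C57BL6/J hypothalamus, 0.23 in the C57BL/6 cerebellum, -0.82 in the labelled BALB cerebellum (adjusted p = 0.13), -0.17 in the labelled striatum and 0.10 in the frontal cortex. The Igh-6 mu constant probe differed by 0.18 in aged CBA hypothalamus. Their r with each other was 0.35 over the 20 CBA arrays, 0.55 in the BALB hypothalamus and 0.99 in the C57BL6/J hypothalamus.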
